A study of Homo sapiens with 3 samples.

Results

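Alcohol dehydrogenases (ADH) and aldehyde dehydrogenases (ALDH) were described in the bladder cancer line 5637 and in its gemcitabine-resistant derivative. The genes were 10 that had been picked by name with earlier results of these data known, ADH1A, ADH1B, ADH1C, ADH5, ADH7, ALDH1A1, ALDH1A2, ALDH1A3, ALDH3A1 and ALDH3B2, and 9 of them were rows of the deposited gene table, which held 29960 genes. ADH7 was not analysed here. ADH1C had been singled out for its low level in the resistant cells, so its values in this contrast, and those of the other 9 genes, are a description and carry no test.

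The parental group (5637P) was the unselected line (genotype WT in the labels), derived from a human bladder carcinoma. The resistant group (5637GR) was the same line after growth under continuous gemcitabine, a nucleoside analog that blocks DNA synthesis. Both were grown in RPMI with 10% FBS and labelled untreated, and the study took 3 single-cell clones of each. Values per library are given for 1 parental and 2 resistant libraries, those whose sample is labelled, with 14475531, 15836788 and 17461941 reads counted on genes. Values are listed in that order throughout. Group means are the authors', averaged over their clones after scaling the counts of each library by its size factor. Each library is 1 clone of 1 line, so that differences between clones and differences that came with resistance cannot be told apart, and p-values measure only the spread between these libraries.

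ADH enzymes oxidise alcohols, ethanol and retinol among them, to aldehydes, and ALDH enzymes oxidise aldehydes to acids. The class I genes ADH1A, ADH1B and ADH1C encode closely related subunits that are abundant in liver, and they lie in one cluster on chromosome 4 with ADH5, the widely expressed glutathione-dependent formaldehyde dehydrogenase. ALDH1A1, ALDH1A2 and ALDH1A3 make retinoic acid from retinal, ALDH3A1 acts on aromatic and lipid-derived aldehydes, and ALDH3B2 is a relative of ALDH3B1, which acts on lipid aldehydes.

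The ADH1 genes resemble each other in sequence, which bears on how their reads can be counted. Over the longest open reading frames of the GENCODE transcripts, ADH1B and ADH1C were identical at 95.7% of aligned bases, with a longest identical run of 170 bases. ADH1A matched ADH1B at 94.9% and ADH1C at 93.9%. ADH1C and ADH5 matched at 67.3%, with a longest run of 17 bases. Reads could therefore be split or lost among the 3 ADH1 genes by the counting, and much less between ADH1C and ADH5. The ALDH1A genes matched each other at 67.8% to 71.8%, and ALDH3B1 and ALDH3B2 at 86.5%.

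The windows at the transcription starts of these chromosome 4 genes are shown because the loss of ADH1C is set against its neighbours. Each runs from 250 bases before to 50 bases after the start in RefSeq (GRCh38.p14, minus strand), written 5′ to 3′ on the strand of the gene with CG dinucleotides in capitals. They are chr4:99290936-99291235 for ADH1A, chr4:99321352-99321651 for ADH1B, chr4:99352697-99352996 for ADH1C and chr4:99088739-99089038 for ADH5.
ADH1A: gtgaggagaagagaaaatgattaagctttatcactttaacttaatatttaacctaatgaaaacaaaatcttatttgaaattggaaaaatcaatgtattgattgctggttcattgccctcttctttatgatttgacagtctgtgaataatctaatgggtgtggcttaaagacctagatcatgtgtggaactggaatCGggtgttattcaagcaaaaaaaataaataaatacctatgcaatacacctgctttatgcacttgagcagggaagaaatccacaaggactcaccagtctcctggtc
ADH1B: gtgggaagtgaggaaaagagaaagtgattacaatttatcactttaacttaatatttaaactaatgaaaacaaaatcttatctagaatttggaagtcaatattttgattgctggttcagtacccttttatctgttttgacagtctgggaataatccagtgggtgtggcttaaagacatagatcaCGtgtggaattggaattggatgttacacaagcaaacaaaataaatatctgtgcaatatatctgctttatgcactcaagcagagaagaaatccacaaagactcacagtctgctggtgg
ADH1C: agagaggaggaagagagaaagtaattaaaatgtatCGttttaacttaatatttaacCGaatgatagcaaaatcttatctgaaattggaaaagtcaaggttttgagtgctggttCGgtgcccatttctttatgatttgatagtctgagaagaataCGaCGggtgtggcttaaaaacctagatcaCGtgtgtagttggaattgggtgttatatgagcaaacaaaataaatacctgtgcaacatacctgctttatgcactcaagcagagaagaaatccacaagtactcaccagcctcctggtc
ADH5: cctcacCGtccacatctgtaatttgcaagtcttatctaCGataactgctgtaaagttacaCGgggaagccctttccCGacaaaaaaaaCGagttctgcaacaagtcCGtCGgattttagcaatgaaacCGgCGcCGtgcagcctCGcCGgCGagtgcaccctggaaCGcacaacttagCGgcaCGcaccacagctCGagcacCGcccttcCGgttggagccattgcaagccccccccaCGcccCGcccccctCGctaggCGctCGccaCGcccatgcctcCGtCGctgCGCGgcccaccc
ADH1A and ADH1B held 1 CG each, ADH1C held 6 and ADH5 held 29, beside a median of 14 over 35116 promoters of the same length. The ADH1 windows were 83.8% to 86.9% identical in pairs. The E-box CACGTG, which reads the same on both strands, was in the windows of ADH1B and ADH1C and not in those of ADH1A or ADH5, and 7.26% of all promoters held it. The letters TATAAA on either strand were in none of these 4 windows and in 11.5% of all promoters. Such matches are a description of the letters and say nothing of binding.

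ADH1C (ENSG00000248144; hg19 chromosome 4, 100257649 to 100274184, minus strand, classed in the table as a polymorphic pseudogene) was read 134 times in the parental library, 0 times in resistant library 1 and 1 time in resistant library 2. Scaled by gene length and library total (FPKM), its level was 5.32, 0 and 0.0329. Scaled by library total alone (CPM, with TMM-adjusted library sizes), the parental level was 9.51, with an exact 95% counting interval of 7.97 to 11.3. The 0 reads in resistant library 1 allow a level of up to 0.183 CPM, taken at 3 reads. Resistant library 2 stood at 0.0576 CPM, with an interval of 0.00146 to 0.321. Both resistant libraries were below the parental one, beside 34.5% of the 15643 genes with enough reads for a test, and both were at the detection limit. The ratio of parental to resistant CPM was 321, with a counting interval of 56.6 to 12757, which rests on 1 resistant read. The authors' means were 102.3 in the parental and 0.279 in the resistant group, a log2 ratio of -6.34 after a pseudocount of 1. The labelled libraries gave -7.25 and -6.31 on the same scale.

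ADH1A and ADH1B, the class I genes next to it, had almost no reads in either state. ADH1A had 0 reads in all 3 libraries. ADH1B had 3, 0 and 1. The authors' means were 1.08 and 0 for ADH1A and 1.39 and 0.279 for ADH1B. Both genes were at or under 3 reads in every library, so no fold is given, and class I ADH transcripts of the parental library were assigned almost wholly to ADH1C. ADH6, another ADH gene of the cluster, had 7, 8 and 8 reads, too few to enter the test, and a ratio of parental to resistant CPM of 1.05 with a counting interval of 0.364 to 2.69. ADH1A and ADH6 overlap the opposite-strand transcript RP11-696N14.1, with 77, 92 and 58 reads, and the sources do not state which library protocol, stranded or not, was used. ADH4 was not analysed here.

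ADH5 (ENSG00000197894) was the abundant ADH gene in both states. It was read 2775 times in the parental library and 2711 and 2133 times in the resistant libraries, or 73.4, 65.5 and 46.8 FPKM. Both resistant libraries were below the parental one, at -0.25 and -0.68 on the log2 scale. The authors' means of 2660 and 2337 gave a log2 ratio of -0.19. The ratio of parental to resistant CPM was 1.37, with a counting interval of 1.31 to 1.44, against 321 for ADH1C.

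**Figure D1:**
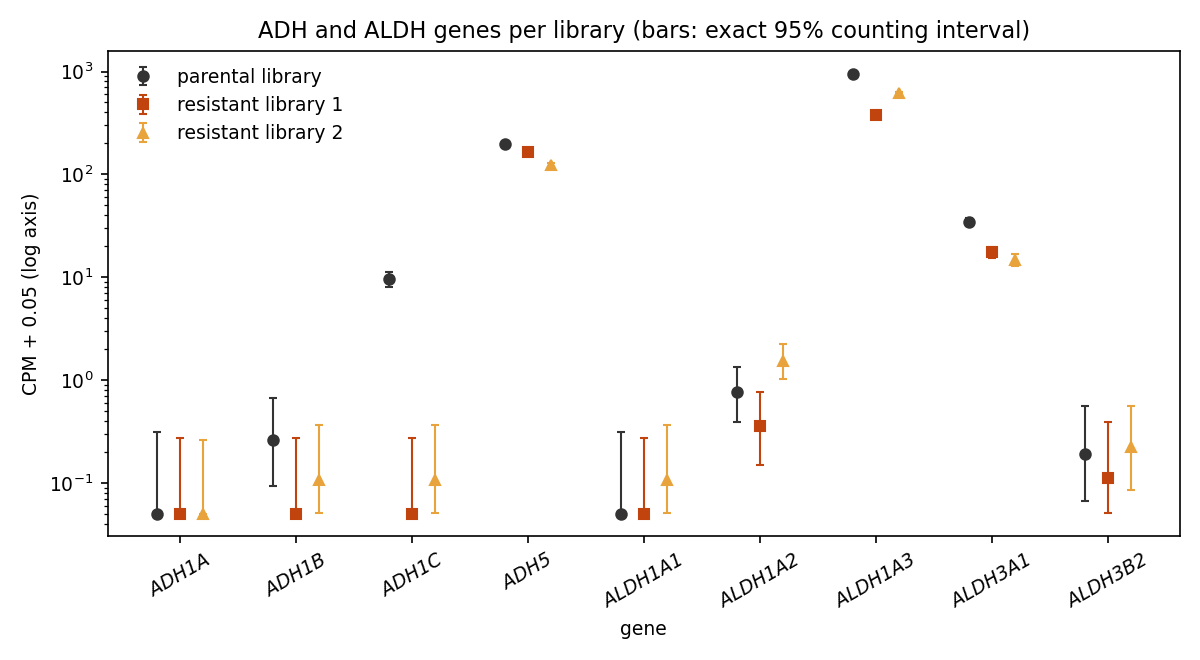
Level of the 9 measured ADH and ALDH genes in each of the 3 labelled libraries, in CPM plus 0.05 on a log axis. Bars are exact 95% counting intervals. In ADH1C the parental library stands at 9.51 CPM and the resistant ones at 0 and 0.0576, whereas ADH5 and ALDH1A3 stay above 100 CPM in all 3.

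Among the ALDH genes, ALDH1A3 (ENSG00000184254; hg19 chromosome 15, 101402129 to 101456831) had the highest level per length. It stood at 237 FPKM in the parental library and at 100.1 and 156 FPKM in the resistant libraries, from 13457, 6222 and 10661 reads. Both resistant libraries were lower, at -1.33 and -0.64 on the log2 scale, and the spread between them was about as large as the smaller of these shifts. The authors' means were 10818 and 7215, a log2 ratio of -0.58. ALDH1A3 shares its locus with the antisense transcript RP11-66B24.4, which had 671, 324 and 432 reads, and with the same-strand RP11-66B24.2, which had 325, 311 and 179. Without stranded counting, reads of the first cannot be told from those of ALDH1A3.

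ALDH3A1 (ENSG00000108602; hg19 chromosome 17, 19641297 to 19652256) had 481 reads in the parental library and 286 and 255 in the resistant libraries. Per length these were 15.5, 8.42 and 6.81 FPKM. Both resistant libraries were below the parental one, at -0.96 and -1.21 on the log2 scale. The authors' means, 278 and 175, gave -0.66, a smaller shift than either labelled library. ALDH1A2 (ENSG00000128918) was low, with 10, 5 and 26 reads, with 1 resistant library below and the other above the parental one, at -1.07 and 1.01. Its group means of 10.7 and 11.5 gave 0.09. ALDH1A1, a widely used stem cell marker in carcinomas, had 0, 0 and 1 reads, and ALDH3B2 had 2, 1 and 3. These 2 genes were at or under 3 reads throughout, so that no change of either was detectable at this depth.

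In order of level per length in the parental library, ALDH1A3 led, followed by ADH5, ALDH3A1 and ADH1C, with ALDH1A2 at 0.169 FPKM. In resistant library 2 the order of the first 3 was the same. There ADH1C, at 0.0329 FPKM, lay below ALDH1A2 at 0.363 FPKM and ALDH3B2 at 0.0649 FPKM and next to ALDH1A1 at 0.0272 FPKM. With 1 read each, ADH1C and ALDH1A1 do not differ beyond counting error. The summed level of the 9 genes was 1196 CPM in the parental library and 564 and 753 CPM in the resistant libraries, and ALDH1A3 made up most of it in each.

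Of the 9 genes, 4 were at or under 3 reads in every library and 5 entered the fit across all genes (edgeR quasi-likelihood test). ADH1C entered it through the parental library alone. At an adjusted p of 0.05, that fit called 0.582% of all 15643 genes tested lower and 0.294% higher. Its calls for the 5 are not given, because their values carry no test. By the authors' means, 1 of 5 was at least 2-fold lower, beside 3.15% of the 14630 genes whose mean reached 10, and none was at least 2-fold higher, beside 3.21%. Both resistant libraries were below the parental one for 4 of the 5, beside 34.5% of the genes in the fit, and above it for none, beside 35.2%. The genes were chosen on this contrast, so nothing is read from these counts.

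No measured gene around ADH1C had a shift of its size. Within 1 Mb of ADH1C on chromosome 4 the table held 26 other rows, and 12 of them, ADH5 included, had a mean of at least 10. Their median log2 ratio of group means was 0.05, with a range of -1.16 to 1.54, and the log2 ratio of ADH1C minus this median was -6.39. The same difference was -7.45 in resistant library 1 and -6.28 in resistant library 2. Against the 3 ALDH genes of the chosen 10 with such a mean, whose median was -0.58, it was -5.75. These differences are a description, since ADH1C was chosen for its loss.

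Of the 26 rows, 13 entered the fit, among them ADH5, a chosen gene whose call is not given. None of the others passed an adjusted p of 0.05 by edgeR, with 1 at an unadjusted p under 0.05, beside 9.70% of all genes tested. DESeq2 and an edgeR fit without a filter on low counts each called 1, where they called 248 and 534 over all genes. That gene was DAPP1, a signaling adaptor of B cells, with 80, 409 and 295 reads, higher in both resistant libraries (log2 fold change 1.89 ± 0.47 SE, edgeR adjusted p = 0.134). Toward the 3′ side of ADH1C, METAP1, a methionine aminopeptidase, had 812, 1005 and 932 reads. EIF4E, the cap-binding translation factor, had 554, 756 and 550. Their edgeR log2 fold changes were 0.00 and -0.01. Farther out, TSPAN5, a tetraspanin, had 518, 778 and 958 reads, RAP1GDS1, an exchange factor for small GTPases, had 329, 509 and 646, and the noncoding RP11-1299A16.3 had 3, 12 and 10.

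On the 5′ side, TRMT10A, a tRNA methyltransferase, had 52, 91 and 58 reads. LAMTOR3, a subunit of the Ragulator complex, had 141, 159 and 179, and DNAJB14, a chaperone of the endoplasmic reticulum, had 253, 330 and 349. H2AFZ, the histone variant H2A.Z, had 2361, 3500 and 2549. Their edgeR log2 fold changes were 0.27, 0.00, 0.17 and 0.11. Genes on both sides of ADH1C were thus read in all 3 libraries. DDIT4L, an inhibitor of mTOR signaling, was the lowest by group means and was read 11, 1 and 18 times, so that the resistant libraries were apart from each other.

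**Figure D2:**
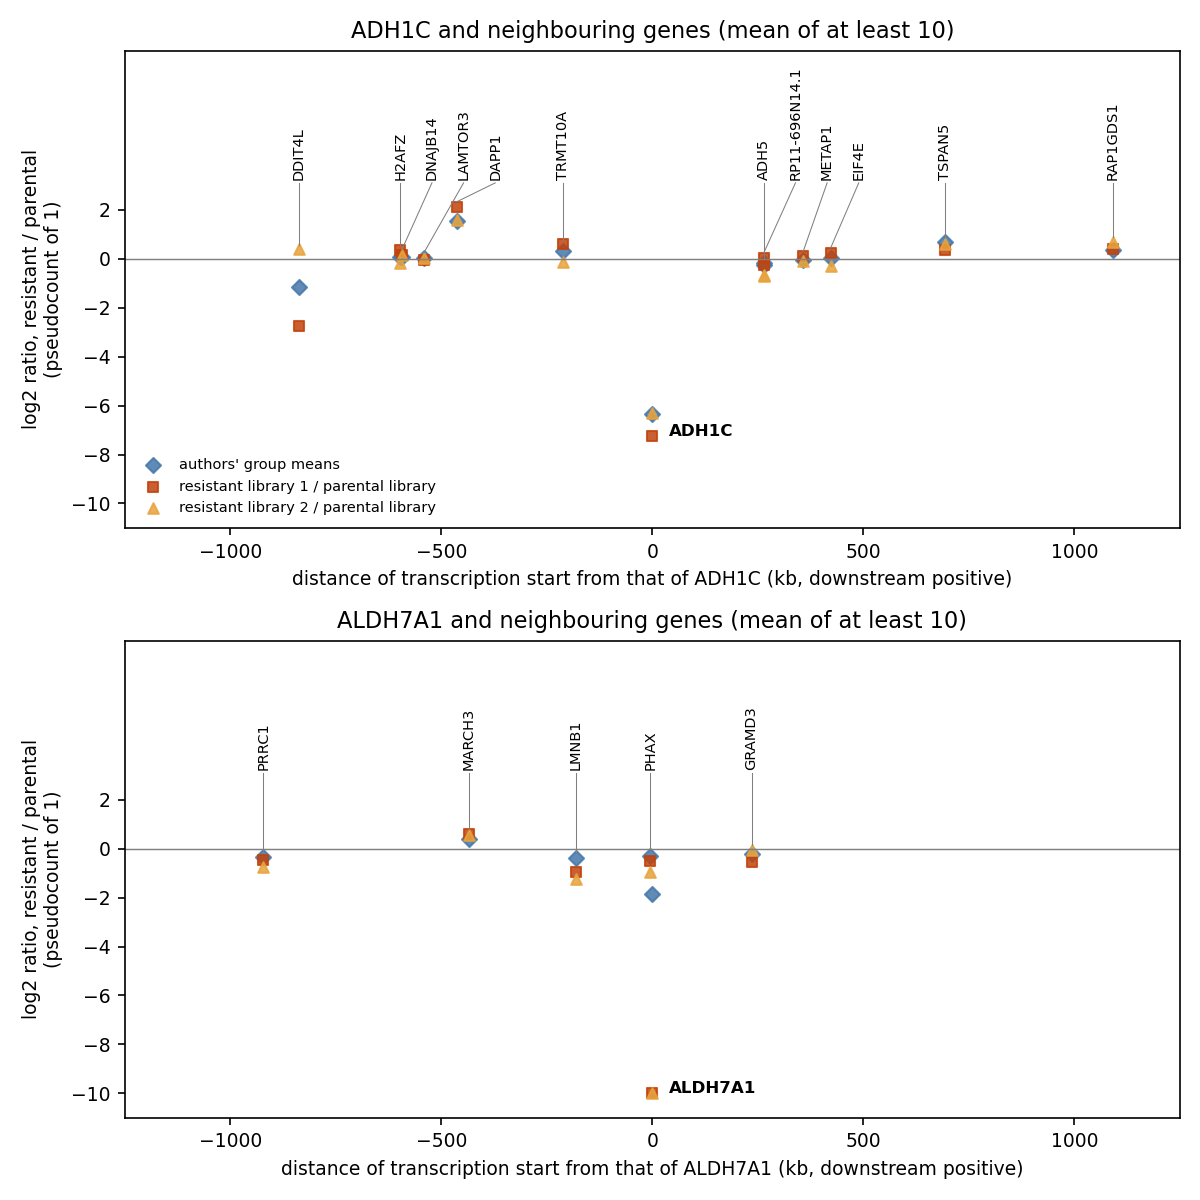
Log2 ratio of resistant to parental level (pseudocount of 1) against the distance in kb between transcription starts, for ADH1C with its neighbours (top) and ALDH7A1 with its neighbours (bottom). Diamonds are the authors' group means, and squares and triangles are the 2 resistant libraries. ADH1C lies between -7.25 and -6.31 while its neighbours have a median of 0.05, and for ALDH7A1 the group means (-1.85) stand far above the libraries, whose place is set by the pseudocount since both had 0 reads.

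The 14 other ALDH genes all had a row, and 12 had enough reads for the fit. By edgeR 1 of these was called lower, ALDH7A1, beside 0.582% of all genes tested, and none was called higher, beside 0.294%, with 3 at an unadjusted p under 0.05, beside 9.70%. ALDH7A1 entered the fit through the parental library alone, so its call is given as a description. DESeq2 and the other fits that were run also called none higher. The median edgeR log2 fold change of the 12 was -0.44, beside 0.03 over all genes tested. Both resistant libraries were below the parental one for 8 of the 12, where the share of all genes in the fit was 34.5%, above it for none, where the share was 35.2%, and on either side for 4. By the authors' group means the median was -0.18.

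ALDH7A1 (ENSG00000164904; hg19 chromosome 5, 125877533 to 125931110, minus strand), which encodes antiquitin, an enzyme of lysine breakdown and betaine synthesis, was read 907 times in the parental library and 0 times in both resistant libraries. Its level was 64.4 CPM in the parental library, and the 0 reads allow up to 0.183 and 0.173 CPM in the resistant libraries. In the labelled resistant libraries it was at least 351-fold lower, against 3 reads in the shallower one, with counting error only and no test behind this bound. The authors' resistant mean was 242.8, however, against a parental mean of 875.2, a log2 ratio of -1.85. Both labelled resistant libraries had 0 reads, so this resistant mean came from resistant clones outside them. The loss of ALDH7A1 is thus shown for the labelled libraries and not for the whole resistant group. For ADH1C the resistant libraries and the resistant mean were both at the detection limit.

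The start window of ALDH7A1 is given as the second gene of the family with 0 reads in a resistant library and many in the parental one (RefSeq, GRCh38.p14, chr5:126595170-126595469, minus strand, CG in capitals).
ALDH7A1: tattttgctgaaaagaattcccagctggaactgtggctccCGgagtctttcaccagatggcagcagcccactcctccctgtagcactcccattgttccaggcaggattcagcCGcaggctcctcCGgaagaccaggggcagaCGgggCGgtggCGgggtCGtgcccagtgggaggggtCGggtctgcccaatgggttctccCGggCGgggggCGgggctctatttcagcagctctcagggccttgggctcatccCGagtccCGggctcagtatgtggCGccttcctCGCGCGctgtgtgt
It held 17 CG, more than ADH1C with 6, and neither CACGTG nor TATAAA. The surrounding genes were looked at after the ALDH7A1 values had been seen. Of 11 rows within 1 Mb, 5 entered the fit and none was called by edgeR or DESeq2, with 1 at an unadjusted edgeR p under 0.05, LMNB1, which encodes lamin B1 (4768, 2850 and 2493 reads, adjusted p = 0.301). PHAX, an adaptor for the export of small nuclear RNA whose start lies 4.8 kb from that of ALDH7A1, had 760, 618 and 478 reads. GRAMD3 had 204, 164 and 242, PRRC1 had 1100, 936 and 812, and MARCH3, a ubiquitin ligase, had 49, 87 and 90. In CPM, 4 of the 5 were lower in both resistant libraries, beside 34.5% of the genes in the fit. MARCH3 was higher in both, beside 35.2%. The median edgeR log2 fold change of the 5 was -0.59, beside 0.03 over all genes tested. Of all genes tested, 9.70% had an unadjusted edgeR p under 0.05. A shift of the region was not tested. All 5 were read in both resistant libraries, where ALDH7A1 had 0 reads.

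The other ALDH genes had smaller differences. ALDH3B1 had 1200, 521 and 706 reads (log2 fold change -1.23 ± 0.35 SE, edgeR adjusted p = 0.204), and the mitochondrial ALDH1B1 had 1124, 717 and 734 (-0.89 ± 0.34, adjusted p = 0.412). In both genes the resistant libraries were below the parental one and close to each other, and neither passed the test. ALDH3A2, the fatty aldehyde dehydrogenase, had 2404, 1920 and 2055 reads. ALDH4A1, of proline breakdown, had 139, 83 and 120. ALDH5A1, the succinic semialdehyde dehydrogenase, had 159, 170 and 127. Their edgeR log2 fold changes were -0.53, -0.72 and -0.35. ALDH1L1, a folate enzyme, had 77, 20 and 70 reads, so that most of its shift came from resistant library 1.

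ALDH18A1, which makes a proline precursor, was nearly level at 1633, 1736 and 1782 reads, with a log2 fold change of -0.15. ALDH6A1, of valine breakdown, had 168, 290 and 206 reads, ALDH9A1, of carnitine synthesis, had 691, 1054 and 721, and ALDH16A1 had 787, 669 and 1050. In CPM, each of these 3 had 1 resistant library below and the other above the parental level. ALDH16A1 overlaps the opposite-strand gene PIH1D1, with 1447, 1436 and 2661 reads. ALDH8A1 had 15, 16 and 26 reads. ALDH2, the mitochondrial enzyme that clears acetaldehyde, had 1, 2 and 4 reads, and ALDH1L2 had 4, 3 and 2, so that both were near the detection limit in these cells.

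**Figure D3:**
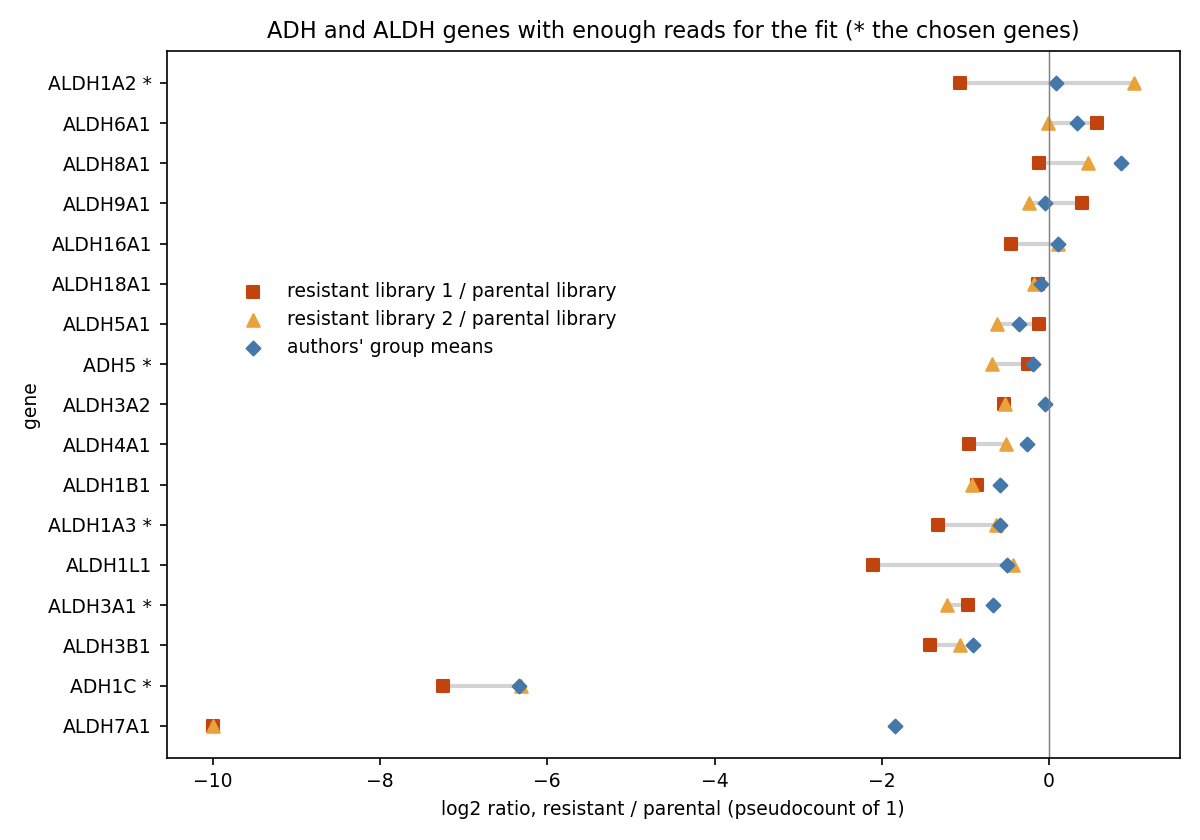
Log2 ratio of resistant to parental level (pseudocount of 1) for the ADH and ALDH genes with enough reads for the fit, with squares and triangles for the 2 resistant libraries, diamonds for the authors' group means and asterisks on the names of the chosen genes. ADH1C and ALDH7A1 lie apart from the rest in both libraries, and most of the other points lie at or somewhat below 0.

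Genes of retinoid handling were examined because ADH and ALDH1A enzymes act in sequence on retinol and retinal. Of 27 genes listed for retinoid metabolism and binding, 22 had a row and 18 entered the fit. By edgeR 1 was called higher, CRABP2, and 2 were called lower, CYP26B1 and STRA6, where 0.294% and 0.582% of all genes tested were called. Of the 18, 5 had an unadjusted p under 0.05, beside 9.70% of all genes tested, and the median log2 fold change was -0.27, beside 0.03. STRA6 entered the fit through the parental library alone, so its call is a description. STRA6, the membrane receptor that takes up retinol from its carrier protein, had 125 reads in the parental library and 1 in each resistant library. The ratio of parental to resistant CPM was 150, with a counting interval of 40.5 to 1248. Its group means, 119 and 13.5, gave a log2 ratio of -3.05, nearer to 0 than the labelled libraries.

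CYP26B1, which inactivates retinoic acid, had 581, 124 and 158 reads (log2 fold change -2.30 ± 0.37 SE, edgeR adjusted p = 0.0219). CRABP2, which carries retinoic acid to its nuclear receptors, had 267, 2191 and 1475 reads (2.53 ± 0.45, adjusted p = 0.0319). On the log2 scale the labelled resistant libraries stood at -2.43 and -2.17 for CYP26B1 and at 2.82 and 2.16 for CRABP2. In both genes they lay nearer to each other than to the parental library. The group means were 517 and 218 for CYP26B1 and 791 and 1513 for CRABP2, log2 ratios of -1.24 and 0.93. The means gave smaller shifts than the labelled libraries, so these differences are not shown at that size for all clones of the groups. For CRABP2 the parental mean of 791 was far above the 267 reads of the labelled parental library. Most of that mean thus came from parental clones outside it. For CYP26B1 the resistant mean of 218 was above the 124 and 158 reads of the labelled resistant libraries.

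The most abundant genes of this list by CPM were DHRS3, which turns retinal back into retinol, with 3806, 3200 and 1910 reads, CRABP2, and RDH10, the retinol dehydrogenase, with 564, 544 and 1899. DHRS3 and RDH10 did not pass the test (edgeR adjusted p = 0.58 and 0.755).

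Of 14 genes listed for retinoic acid receptors and response, 13 had a row, 11 entered the fit, and none was called by edgeR, with 2 at an unadjusted p under 0.05, beside 9.70% of all genes tested. DESeq2 called 1 of them, RARG, and so did each of the other settings tried. Over all genes, DESeq2 and these settings called 229 to 534, against 137 by the main edgeR fit. RARG, retinoic acid receptor gamma, is named here after its values were seen. It had 1521, 589 and 405 reads (log2 fold change -1.86 ± 0.37 SE, edgeR adjusted p = 0.0539), and its adjusted p was between 9.71e-05 and 0.0194 under the other fits. RXRA, the partner receptor, had 9966, 7133 and 8065 reads. TGM2, a transglutaminase induced by retinoic acid, had 8837, 5258 and 4850 (adjusted p = 0.308), and the coregulator NRIP1 had 1654, 2619 and 2574. The median of the list was 0.08.

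**Figure D4:**
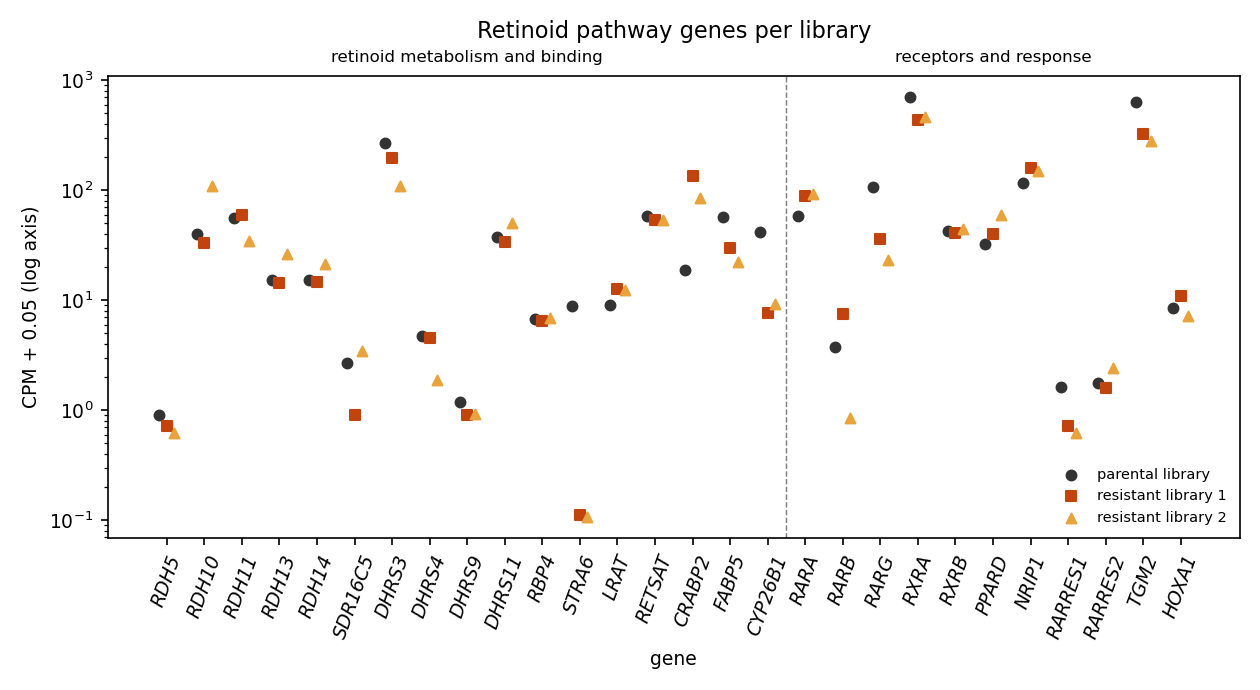
Level of retinoid genes that entered the fit in each labelled library, in CPM plus 0.05 on a log axis, with retinoid metabolism and binding on the left of the dashed line and receptors and response on the right. STRA6 stands at 8.87 CPM in the parental library and near the bottom of the axis in both resistant ones, and CRABP2 is higher in both.

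Other routes of alcohol and aldehyde handling were listed as well. Of 10 genes listed for ethanol and small aldehydes, 9 had a row, 7 entered the fit, and none was called by edgeR or DESeq2, with 2 at an unadjusted p under 0.05 by edgeR, beside 9.70% of all genes tested. The median was -0.40, and both resistant libraries were below the parental one for 6 of the 7, beside 34.5% of the genes in the fit. The most abundant were CAT, catalase, with 1184, 809 and 824 reads (edgeR adjusted p = 0.477), AKR1A1, the aldehyde reductase, with 1067, 546 and 931, and AKR7A2, another aldo-keto reductase, with 631, 844 and 555. The aryl hydrocarbon receptor genes were listed because ALDH3A1 belongs to that receptor's battery. Of 10 genes, all with a row, 9 entered the fit, and none was called by edgeR or DESeq2 or had an unadjusted edgeR p under 0.05, with a median of 0.00. The receptor AHR had 1088, 1580 and 2416 reads, NQO1, its quinone reductase target, had 1952, 2654 and 1379, and NFE2L2, an oxidative stress regulator, had 1037, 1325 and 1152.

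The pattern of ADH1C, reads in the parental library and 3 reads or fewer in both resistant libraries, was compared across the table. With at least 20 parental reads and no upper limit, 37 of the 29960 genes had this pattern, ADH1C and ALDH7A1 among them. The 5 nearest to ADH1C in parental CPM, measured as the distance on the log2 scale over these 3 libraries, were STRA6 (0.10), KRT4 (0.22), CCAT1 (0.22), CXCL12 (0.29) and RP11-336A10.4 (0.30). KRT4, a keratin of stratified epithelia, had 156, 0 and 1 reads, and CXCL12, a chemokine, had 164, 0 and 0. The noncoding CCAT1 had 115, 3 and 1, and RP11-336A10.4 had 109, 1 and 1. The authors' resistant means were 0.671 for KRT4, 1.17 for CCAT1, 1.36 for RP11-336A10.4 and 1.57 for CXCL12, and 13.5 for STRA6. The log2 ratios of the means were -6.33, -5.10, -5.24 and -5.57 for the first 4, in that order, and -3.05 for STRA6.

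The label of the cells was checked against markers. All 12 urothelial and epithelial markers were read in every library, with summed levels of 10913, 8450 and 9172 CPM. Of the 12, KRT5, a basal keratin, was called lower by edgeR, with 3829, 160 and 240 reads (adjusted p = 0.000598), and 2 were called lower in each of the other fits. Over all genes, the main edgeR fit called 91 lower and those other fits called 124 to 261 lower. By the authors' means KRT5 stood at 11544 in the parental and 2047 in the resistant group, a log2 ratio of -2.49. The labelled libraries gave -4.79 and -4.29 on the same scale. The resistant mean of 2047 is far above the 160 and 240 reads of these resistant libraries. Most of it thus came from resistant clones outside them. The KRT5 loss is shown for the labelled libraries and not for the whole resistant group. Hepatocyte markers, listed because class I ADH is abundant in liver, summed to between 0.071 and 0.576 CPM, with albumin at 0, 0 and 1 reads. Fibroblast markers summed to 172, 155 and 145 CPM, nearly all from COL1A1 and COL1A2, with LUM at 0 in all libraries and PDGFRB at 2, 4 and 2 reads. Leukocyte and endothelial markers summed to 1.14, 1.59 and 2.19 CPM. In such bulk RNA, fewer cells that express a gene and less of its RNA per cell cannot be told apart, and the part of KRT5-expressing cells in the ADH1C values was not tested.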

How the data were processed

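RNA of clones of the bladder cancer line 5637 was sequenced from poly-A RNA. The authors deposited per gene the raw read count and the FPKM of each library, and the group signal, which is their mean of counts divided by a size factor. The deposited FPKM equalled the count per kilobase of gene length and per counted reads within 1% for every gene with reads. Per the labels, hg19 and CASAVA 1.8 were named in the submitters' processing notes, and the aligner, counting tool and annotation are not given in the sources used here. The authors' log2 fold changes, p-values and adjusted p-values in the table come from DESeq2 and were not used, nor were 6 columns of per-library values whose samples carry no label here.

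The counts of the 3 labelled libraries (1 parental, 2 resistant; 14475531 to 17461941 reads on genes) were fitted with edgeR 4.0.16 in R 4.3.3 (quasi-likelihood test, TMM, filterByExpr, Benjamini-Hochberg adjustment over all genes tested). This leaves 1 residual degree of freedom, with the parental library assumed to vary like the resistant ones. DESeq2 1.42.0, median-ratio scaling, no filter and an adjusted p of 0.1 were alternatives, and the fit was tested on simulated data. Log2 ratios carry a pseudocount of 1, which understates the change of low genes. The edgeR log2 fold changes and the medians of the pathway lists come from the fit and do not carry it. Intervals (exact, 95%) and limits of 3 reads cover counting error only.

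The genes and lists were chosen with earlier results of these data known. Named were the 10 chosen genes, all other listed ADH and ALDH genes, rows within 1 Mb of ADH1C with at least 10 reads in a labelled library, the called genes and the 3 most abundant of each pathway list, and the 5 genes nearest to ADH1C in level. The values of 1 listed gene are not reported here.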

Additional observations from a re-analysis of the deposited data

How the results depend on the processing

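Over all genes, 137 were called by edgeR (46 higher and 91 lower, 66.4% lower). With median-ratio scaling 235 were called, with an adjusted p of 0.1 there were 229, without a filter on low counts 534 (273 higher, 261 lower) and by DESeq2 248 (124 higher, 124 lower). The last 2 fits tested more low genes, and the median log2 fold change over all genes was 0.122 and 0.132 in them, against 0.029. The retinoic acid receptor and response list had 0 calls by edgeR and 1 under each of these 4 alternatives. The chromosome 4 neighbours, ADH5 left out, had 0 calls, and 1 without the filter and 1 by DESeq2 (DAPP1, adjusted p of 0.0144 and 0.0402). The counts of calls among the other ADH, other ALDH, retinoid metabolism, ethanol and aryl hydrocarbon receptor lists stayed within 1.5 times of the edgeR count under all 4.

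The log2 ratio of ADH1C was -6.34, and -7.04 with a pseudocount of 0.5, -4.35 with a pseudocount of 5 and -5.54 in FPKM with a pseudocount of 0.1. Using 1 resistant library at a time gave -7.25 to -6.31 for ADH1C, -0.68 to -0.25 for ADH5, -1.33 to -0.64 for ALDH1A3 and -1.21 to -0.96 for ALDH3A1. ALDH3A1 was at -0.66 by the group means, and at -1.08 with TMM, -1.08 with median-ratio scaling and -1.02 in FPKM over the labelled libraries. ALDH1A2 was -1.07 without resistant library 2 and 1.01 without resistant library 1. The cause of these differences was not tested. Added after seeing the data, the authors' group means gave -1.85 for ALDH7A1, -3.05 for STRA6, -1.24 for CYP26B1 and 0.93 for CRABP2. Leaving out a resistant library left 1 library against 1 with no residual degrees of freedom, so calls were not recomputed. No paired analysis was made, because the libraries are separate clones and the labels give no pairing. Depth limits ADH1A, ADH1B, ALDH1A1 and ALDH3B2, at or under 3 reads in every library.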
